A study of Homo sapiens with 24 samples.

Results

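The transcripts described here came from 10 genes widely used as readouts of YAP and TAZ activity: ANKRD1, AXL, F3, NT5E, CRIM1, MYOF, FJX1, ASAP1, NUAK2 and GADD45B. They were chosen by name as known target genes outside the CCN family and were looked up by Ensembl identifier. All 10 were among the 60279 genes of each count table, and all 10 were among the 19997 that entered the tests because they averaged 5 counts or more per library. YAP and TAZ are transcriptional coactivators that have no DNA-binding domain of their own and reach their genes mainly through the TEAD transcription factors. When cells are crowded, the LATS kinases of the Hippo pathway phosphorylate both proteins, which are then held in the cytoplasm or degraded. Transcripts of these genes are therefore commonly read as a measure of how much active YAP or TAZ a cell has.

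The cells were SW872, an established human liposarcoma cell line, and every group, controls included, was a stable pool made with a retroviral vector that carried resistance to G418. The 24 libraries formed 8 groups of 3. EV cells carried the empty vector, and TAZ-CAMTA1 and YAP-TFE3 cells expressed the fusion proteins found in epithelioid hemangioendothelioma, a vascular sarcoma. TAZ4SA and YAP5SA cells expressed hyperactive TAZ or YAP in which serines that LATS phosphorylates were changed to alanine, and TFE3 cells expressed full-length TFE3, a basic helix-loop-helix factor. These 6 groups were collected 48 h after reaching confluence. CAMTA1 cells, which expressed full-length CAMTA1, and a second empty vector group, called EVsub here, were collected before confluence. Transgenes were driven by the vector and not by the cells' own promoters, and the constructs carried a Flag tag.

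Libraries held 19700277 to 35287476 counts. Levels are given as CPM, the counts of a gene per 1000000 counts of its library, with library sizes scaled by TMM (trimmed mean of M-values). TFE3 transcripts averaged 336.2 CPM in TFE3 and 283.0 in YAP-TFE3 libraries against 119.3 in EV libraries, and CAMTA1 transcripts 123.5 CPM in CAMTA1 and 144.1 in TAZ-CAMTA1 libraries against 22.9 in EVsub and 21.4 in EV libraries. YAP1 averaged 253.0 CPM in YAP5SA libraries against 127.7 in EV libraries. WWTR1, the gene of TAZ, averaged 134.2 CPM in the libraries labelled TAZ4SA against 204.0 in EV libraries, which is lower. The counts do not separate transgene from endogenous transcripts, so WWTR1 alone neither bears out that label nor shows it to be wrong. Directions drawn from that group are therefore given as directions of the libraries labelled TAZ4SA. Their WWTR1 level was higher than in YAP5SA libraries (log2 fold change 0.97, adjusted p = 2.08e-08, edgeR). WWTR1 was also called lower than in EV in YAP5SA libraries at 68.7 CPM and in YAP-TFE3 libraries at 125.7 CPM, and TAZ-CAMTA1 libraries, which carry TAZ sequence too, averaged 180.8 CPM without a call (adjusted p = 0.236, edgeR). Mesenchymal markers had counts in every library. Of 6 adipocyte markers, ADIPOQ was at 0 counts in 24 libraries and FABP4 in 20, while the other 4 had counts in every library. Group means were 28.9 to 87.2 CPM for PPARG and 38.5 to 256.6 CPM for LPL, which made up most of the adipocyte sums, and at most 3.50 for CEBPA and 0.986 for PLIN1. The summed endothelial markers were 79.7 to 119.0 CPM in EV libraries and 13.2 to 18.2 in YAP5SA libraries. Of these markers, group means reached 53.6 CPM for CDH5 and 49.1 for KDR, but at most 8.05 for PECAM1 and 5.65 for VWF. Epithelial sums reached at most 4.14 and blood sums at most 2.65 CPM in any library. YAP-TFE3 replicate 3 stood farthest from its group, with a chi-square per degree of freedom of 63.5 and 50.1 against the other two libraries, where pairs in the other groups gave 3.08 to 23.2.

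The promoter table of RefSeq (GRCh38.p14) held 8 of the 10 genes, in windows of 300 bases from 250 before to 50 after the transcription start; CRIM1 and ASAP1 had no entry. The letters CATTCC or GGAATG, which are each other's reverse complement and form the core that TEAD factors bind, were in the windows of 3 of these genes, ANKRD1, NUAK2 and the second of the 2 AXL starts. Of 35116 windows in the table, 14.0% held them. The AP-1 letters TGACTCA or TGAGTCA were in the F3 window and in 4.95% of all windows, and the E-box letters CACGTG were in the windows of FJX1 and GADD45B and in 7.26% of all windows. The windows of NT5E and MYOF held none of these words. A match describes the letters only. The 250 bases before the start are shown for ANKRD1, the gene with the widest range in these libraries, for NUAK2, which also held the TEAD letters in 2 places, and for F3, which held the AP-1 letters instead. Each is written 5′ to 3′ on the gene's own strand, which is the minus strand for all 3, with the TEAD letters or, in F3, the AP-1 letters in capitals. They lie at chr10:90921088-90921337 for ANKRD1, chr1:205321746-205321995 for NUAK2 and chr1:94541760-94542009 for F3.
ANKRD1: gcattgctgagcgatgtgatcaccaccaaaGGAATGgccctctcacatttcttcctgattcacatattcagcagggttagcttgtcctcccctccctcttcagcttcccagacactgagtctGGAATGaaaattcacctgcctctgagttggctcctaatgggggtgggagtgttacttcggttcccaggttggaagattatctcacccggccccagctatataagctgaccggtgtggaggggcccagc
NUAK2: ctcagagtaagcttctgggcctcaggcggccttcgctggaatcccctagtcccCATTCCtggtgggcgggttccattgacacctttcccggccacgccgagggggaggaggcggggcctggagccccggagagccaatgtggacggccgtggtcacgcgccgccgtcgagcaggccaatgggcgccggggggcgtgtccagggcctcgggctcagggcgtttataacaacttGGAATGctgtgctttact
F3: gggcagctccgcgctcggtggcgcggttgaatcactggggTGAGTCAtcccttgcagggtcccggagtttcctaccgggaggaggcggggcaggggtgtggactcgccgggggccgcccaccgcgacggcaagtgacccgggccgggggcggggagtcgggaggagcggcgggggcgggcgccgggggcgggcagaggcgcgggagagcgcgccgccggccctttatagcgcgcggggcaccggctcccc
In ANKRD1 the letters began 220 and 128 bases before the start, in NUAK2 they began 197 and 18 bases before it, and in F3 they began 210 bases before it.

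ANKRD1 encodes a nuclear ankyrin-repeat cofactor of muscle and injured tissue and is among the most used YAP/TAZ readouts. The gene (ENSG00000148677) lies at chr10:90912096-90921087 on the minus strand (GRCh38). In the 3 EV libraries it had 46, 22 and 17 counts, or 1.59, 0.838 and 0.824 CPM. The libraries labelled TAZ4SA had 5607, 5963 and 7190 counts, or 225.2, 256.0 and 277.2 CPM, and YAP5SA libraries had 175.1, 162.4 and 230.0 CPM. None of the 6 hyperactive libraries came near the range of the EV libraries. YAP-TFE3 libraries lay between these extremes, with 10.8, 9.07 and 5.75 CPM, and did not overlap EV or the hyperactive groups. TAZ-CAMTA1 libraries had 24, 45 and 34 counts, or 0.909, 1.54 and 1.04 CPM, and overlapped both EV and TFE3 libraries, the latter with 0.643, 1.08 and 0.423 CPM. Before confluence, EVsub libraries had 23.9, 13.1 and 19.4 CPM and CAMTA1 libraries 33.3, 18.8 and 10.8 CPM. The order of the group means ran from the libraries labelled TAZ4SA and YAP5SA, which overlapped, to CAMTA1 and EVsub, which overlapped, then YAP-TFE3, and last TAZ-CAMTA1, EV and TFE3, which overlapped one another. The highest YAP-TFE3 library, at 10.76 CPM, just reached the lowest CAMTA1 library, at 10.75 CPM.

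**Figure D1:**
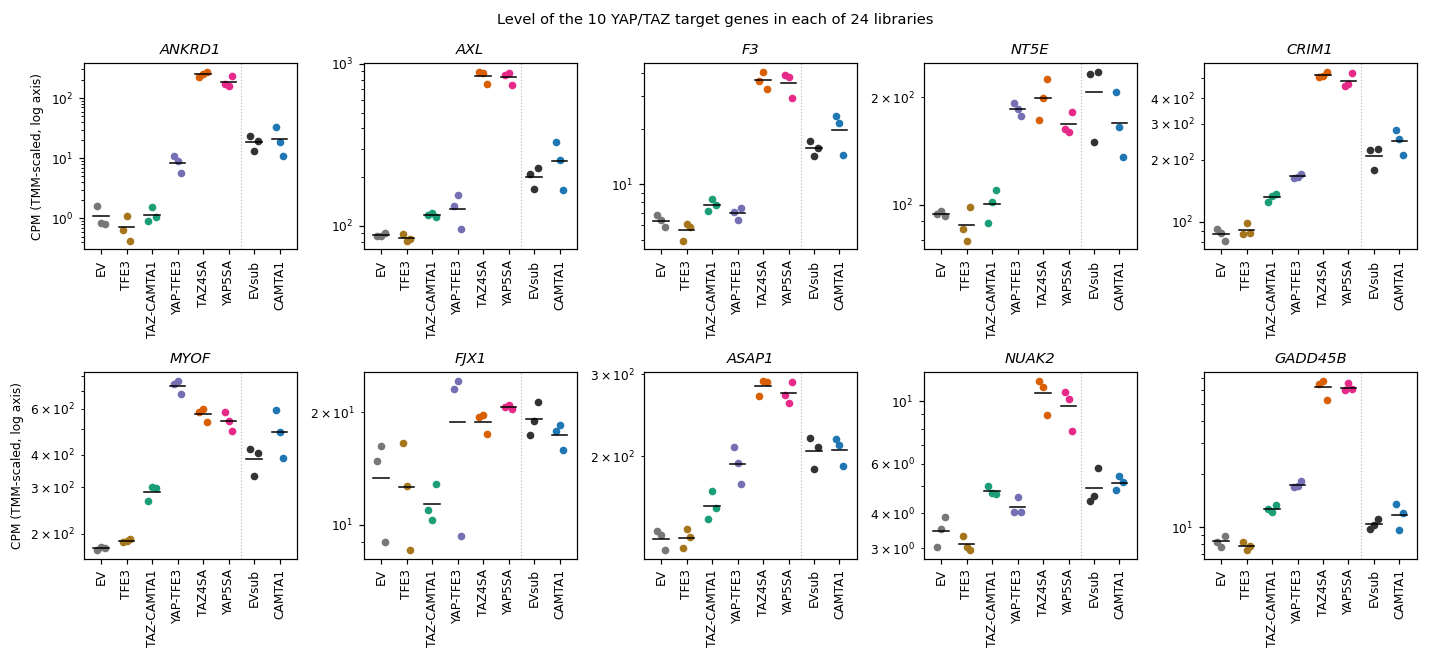
CPM on a log axis (vertical) of each of the 10 genes in each library, by group (horizontal). Points are libraries, bars are means of 3, and the groups right of the dotted line were collected before confluence. Apart from NT5E, FJX1 and MYOF, the genes are highest in YAP5SA libraries and in those labelled TAZ4SA, while MYOF is highest in YAP-TFE3 libraries.

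AXL (ENSG00000167601, chr19:41219223-41261766, plus strand) encodes a receptor tyrosine kinase for the ligand GAS6 and has roles in invasion and survival. Its level was 88.2 ± 2.08 CPM (SD, n = 3) in EV libraries. The libraries labelled TAZ4SA had 897.9, 885.4 and 751.3 CPM and YAP5SA libraries had 859.3, 877.7 and 738.0 CPM. CAMTA1 libraries spread from 332.2 and 256.0 down to 166.7 CPM and overlapped EVsub libraries at 210.0, 169.3 and 226.5 CPM. TAZ-CAMTA1 libraries were close to one another, at 116.4, 119.8 and 112.9 CPM, and fell inside the range of YAP-TFE3 libraries at 133.7, 154.6 and 96.3 CPM. Both fusion groups lay above every EV library.

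F3 (ENSG00000117525, chr1:94529173-94541759, minus strand) encodes tissue factor, the membrane protein that starts the extrinsic coagulation cascade. It had 6.76, 6.40 and 5.81 CPM in EV libraries and 36.5, 41.0 and 32.9 CPM in the libraries labelled TAZ4SA. YAP5SA libraries had 39.3, 38.4 and 29.4 CPM, EVsub libraries 17.1, 14.1 and 15.8 CPM, and CAMTA1 libraries 23.3, 21.5 and 14.4 CPM. Neither fusion reached those levels. TAZ-CAMTA1 libraries had 7.12, 8.28 and 7.65 CPM and YAP-TFE3 libraries 7.08, 6.37 and 7.46 CPM, and the 2 fusion groups overlapped each other.

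NT5E (ENSG00000135318, chr6:85449584-85495791, plus strand) encodes CD73, the ectoenzyme that converts extracellular AMP to adenosine. Unlike the other 9 genes it had its highest mean in EVsub, at 206.0 ± 48.7 CPM (SD, n = 3), although this group overlapped the libraries labelled TAZ4SA at 198.6 ± 26.0. YAP-TFE3 libraries were at 185.2 ± 7.63, CAMTA1 at 169.1 ± 35.3 and YAP5SA at 168.0 ± 12.3 CPM, each overlapping its neighbour in that order. TAZ-CAMTA1, EV and TFE3 libraries formed the low end at 100.4 ± 10.6, 94.4 ± 1.63 and 87.9 ± 9.93 CPM and overlapped one another, while none of them overlapped the 5 groups above.

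CRIM1 (ENSG00000150938, chr2:36355778-36551135, plus strand) encodes a transmembrane protein that binds bone morphogenetic proteins. Levels ran from EV at 87.0 ± 5.87 CPM and TFE3 at 91.2 ± 5.99, which overlapped, to TAZ-CAMTA1 at 131.4 ± 6.31, YAP-TFE3 at 166.5 ± 3.73, EVsub at 209.4 ± 26.0 and CAMTA1 at 247.7 ± 34.2, and then to YAP5SA at 485.8 ± 38.8 and the libraries labelled TAZ4SA at 518.8 ± 17.1 (SD, n = 3 each). Only the neighbours EVsub and CAMTA1, YAP5SA and the group labelled TAZ4SA, and EV and TFE3 overlapped.

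MYOF (ENSG00000138119, chr10:93306429-93482334, minus strand) encodes myoferlin, a ferlin of the plasma membrane involved in membrane fusion and repair. It was the one gene with its highest level in YAP-TFE3 libraries, at 744.8, 767.1 and 679.1 CPM against 172.9, 177.6 and 176.4 CPM in EV libraries. No library of another group reached that range: the highest was 597.8 CPM, in a library labelled TAZ4SA. TAZ-CAMTA1 libraries, at 267.3, 300.6 and 298.7 CPM, lay above EV and TFE3 libraries and below the remaining groups, which apart from YAP-TFE3 spanned 330.5 to 597.8 CPM.

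FJX1 (ENSG00000179431, chr11:35618460-35620865, plus strand) encodes a homologue of the Drosophila Golgi kinase four-jointed and ASAP1 (ENSG00000153317) an Arf GTPase-activating protein at focal adhesions. FJX1 had the narrowest range of group means, 1.81-fold between YAP5SA at 20.6 ± 0.214 CPM and TAZ-CAMTA1 at 11.4 ± 1.34 CPM (SD, n = 3). Its libraries spread within groups, as EV libraries had 14.8, 16.2 and 8.96 CPM, and YAP-TFE3 libraries had 23.0, 24.3 and 9.34 CPM, with replicate 3 low. ASAP1 also had a small range, 2.12-fold, but its libraries were close together, at 138.3, 135.8 and 125.9 CPM in EV, 269.6, 290.7 and 289.1 in the libraries labelled TAZ4SA and 270.9, 260.7 and 288.4 in YAP5SA libraries.

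NUAK2 (ENSG00000163545, chr1:205302063-205321745, minus strand) encodes a kinase of the AMPK-related family and GADD45B (ENSG00000099860, chr19:2476122-2478259, plus strand) a stress-induced regulator of growth arrest and MAP kinase signalling. NUAK2 was low throughout, from 3.04, 3.50 and 3.88 CPM in EV to 11.8, 11.2 and 8.95 CPM in the libraries labelled TAZ4SA. GADD45B libraries had 64.8, 67.4 and 52.7 CPM in the libraries labelled TAZ4SA and 59.3, 65.0 and 60.4 CPM in YAP5SA, and no library of the other 6 groups exceeded 18.2 CPM, the highest in YAP-TFE3. In EVsub libraries GADD45B had 9.72, 10.3 and 11.04 CPM, each above the 8.28, 7.73 and 8.91 CPM of EV libraries.

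Set against one another per kilobase of exon, the genes changed places between groups. In EV libraries NT5E and MYOF were the most abundant, at 20.8 and 20.7 CPM per kb, followed by AXL at 17.2, ASAP1 at 16.1 and CRIM1 at 11.96. FJX1 at 5.54, GADD45B at 3.89, F3 at 2.19, NUAK2 at 1.02 and ANKRD1 at 0.605 CPM per kb followed. In the libraries labelled TAZ4SA, AXL at 164.6 and ANKRD1 at 141.2 CPM per kb led, and NT5E at 43.8 stood behind CRIM1 at 71.4 and MYOF at 67.3. Exons of AXL, CRIM1 and ASAP1 overlap a gene on the opposite strand, and as the use of strand in the counting was not stated, reads of both could not be told apart there. The overlapping gene had at most 27 counts in any library for AXL and at most 3 for CRIM1. The one at ASAP1 was not among the genes of the count tables, so its reads could not be examined.

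The hyperactive proteins were compared with EV to ask how the genes stand when YAP or TAZ that lacks these LATS sites is added. As no group expressed unmutated YAP or TAZ, added protein and the loss of these serines cannot be told apart. In the libraries labelled TAZ4SA, 9 of the 10 genes were higher than in EV, and none was lower. Across all genes tested, 25.1% were called higher and 24.2% lower (edgeR quasi-likelihood test, adjusted p under 0.05), or 16.8% and 36.6% when libraries were scaled by total counts. ANKRD1 changed most, with a log2 fold change of 7.82 ± 0.39 (SE), a fold of 226.5, and ranked 19 from the top of 19997 genes (adjusted p = 1.18e-13, edgeR). The receptor AXL followed at 3.26 ± 0.18, and then GADD45B at 2.89 ± 0.12, CRIM1 at 2.58 ± 0.10 and F3 at 2.54 ± 0.16. MYOF at 1.70 ± 0.11, NUAK2 at 1.63 ± 0.15, ASAP1 at 1.09 ± 0.08 and NT5E at 1.07 ± 0.15 changed less. FJX1 had a log2 fold change of 0.49 ± 0.25 and was not called (adjusted p = 0.11). Over the 10 genes the median was 2.12, and over all genes it was -0.03. Per the study's methods the replicates of a construct came from separate transductions, and all comparisons with EV share its 3 libraries. In bulk RNA, a larger share of cells with a transcript and more transcript per cell cannot be told apart. Summed adipocyte markers were 64.2 to 74.5 CPM in these libraries against 148.7 to 223.1 in EV libraries, and endothelial sums 31.5 to 51.9 against 79.7 to 119.0. Mesenchymal sums were 1836 to 2375 against 1524 to 1718 CPM, and mitochondrial counts 4.11 to 4.72% against 5.09 to 5.43% of the library; their part in the result was not tested.

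In YAP5SA libraries all 10 genes were higher than in EV, where 22.7% of all genes were called higher and 21.6% lower (15.7% and 34.2% with total-count scaling). The log2 fold changes were 7.40 ± 0.39 for ANKRD1, 3.22 ± 0.18 for AXL, 2.89 ± 0.12 for GADD45B, 2.49 ± 0.16 for F3 and 2.48 ± 0.10 for CRIM1. MYOF at 1.61 ± 0.11, NUAK2 at 1.47 ± 0.15, ASAP1 at 1.04 ± 0.08 and NT5E at 0.83 ± 0.15 followed, and FJX1 at 0.62 ± 0.25 was the smallest (adjusted p = 0.0485, edgeR). The median over the 10 genes was 2.05, against -0.04 over all genes. The FJX1 call was lost when any library of the 6 other than EV replicate 2 was left out, and with total-count scaling (adjusted p = 0.162). Summed endothelial markers were lowest in these libraries, as given above, adipocyte sums were 117.8 to 131.7 CPM and the mitochondrial share was 3.87 to 4.35%, both below EV; their part in the result was not tested.

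Set directly against each other, the libraries labelled TAZ4SA and those of YAP5SA gave 0 of the 10 genes as changed by edgeR and by DESeq2, and 0 of the 10 had an unadjusted p under 0.05. Among all genes 3.53% were called higher and 3.64% lower in this comparison, and 18.4% had an unadjusted p under 0.05. The intervals of 2 SE bound the difference: from -0.10 to 0.94 on the log2 scale for ANKRD1, from -0.21 to 0.21 for GADD45B, from -0.30 to 0.37 for AXL, and from -0.63 to 0.37 for FJX1. ANKRD1 had the largest estimate, 0.42 ± 0.26, and was called when genes with low counts were kept (adjusted p = 0.00438). Over the 10 genes the median was 0.07.

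The fusion proteins keep an N-terminal part of TAZ or YAP that includes the TEAD-binding domain, and the comparison with EV asked which of the genes they still raise in confluent cells. In YAP-TFE3 libraries 7 of the 10 genes were higher and none lower, with 25.6% of all genes called higher and 22.6% lower (21.6% and 27.7% with total-count scaling). ANKRD1 rose by 2.93 ± 0.40 on the log2 scale (adjusted p = 1.86e-06) and MYOF by 2.06 ± 0.11 (adjusted p = 6.59e-13, edgeR). GADD45B rose by 1.06 ± 0.11, NT5E by 0.97 ± 0.15, CRIM1 by 0.94 ± 0.10, AXL by 0.54 ± 0.17 and ASAP1 by 0.53 ± 0.08. F3 at 0.14 ± 0.16, NUAK2 at 0.29 ± 0.15 and FJX1 at 0.49 ± 0.25 were not called. The median over the 10 genes was 0.74, against -0.01 over all genes. The AXL call was lost without YAP-TFE3 replicate 2 (log2 fold change 0.38, adjusted p = 0.0927). Without YAP-TFE3 replicate 3, the library that stood apart, 8 genes were called, FJX1 being added at 0.82 (adjusted p = 0.00127). Summed adipocyte markers were 303.7 to 369.6 CPM in these libraries, above EV, and endothelial sums were 35.6 to 52.8 CPM, below EV; their part in the result was not tested.

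In TAZ-CAMTA1 libraries the levels of all 10 genes were below those of the libraries labelled TAZ4SA, and 3 were called higher than in EV. MYOF, which had a log2 fold change of 0.72 ± 0.11 (adjusted p = 0.000169), GADD45B at 0.62 ± 0.12 (adjusted p = 0.00158) and CRIM1 at 0.59 ± 0.10 were higher than in EV (edgeR), where 3.55% of all genes were called higher and 1.44% lower. None of the 3 reached a fold of 2. NUAK2 at 0.47 ± 0.15 (adjusted p = 0.0738), AXL at 0.40 ± 0.17 (adjusted p = 0.207), F3 at 0.28 ± 0.16 and ASAP1 at 0.23 ± 0.08 were not called. At an unadjusted p under 0.05 stood 6 of the 10, the 3 called and NUAK2, AXL and ASAP1, where 17.9% of all genes did. Under 3 other settings 4 genes were called, the added one being AXL when genes with low counts were kept (adjusted p = 0.0025) and in a fit of the 2 groups only (adjusted p = 0.0041), and NUAK2 with total-count scaling (adjusted p = 0.0458). ANKRD1, which had between 17 and 46 counts in each library of both groups, stood at 0.07 ± 0.52 with an interval of 2 SE from -0.98 to 1.12, so that a 2-fold difference in either direction was barely detectable at this depth. NT5E stood at 0.09 ± 0.15 and FJX1 at -0.23 ± 0.25. Over the 10 genes the median was 0.34, against 0.0049 over all genes. Summed adipocyte markers, 173.1 to 235.1 CPM, and endothelial markers, 77.3 to 122.6 CPM, overlapped those of EV libraries.

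**Figure D2:**
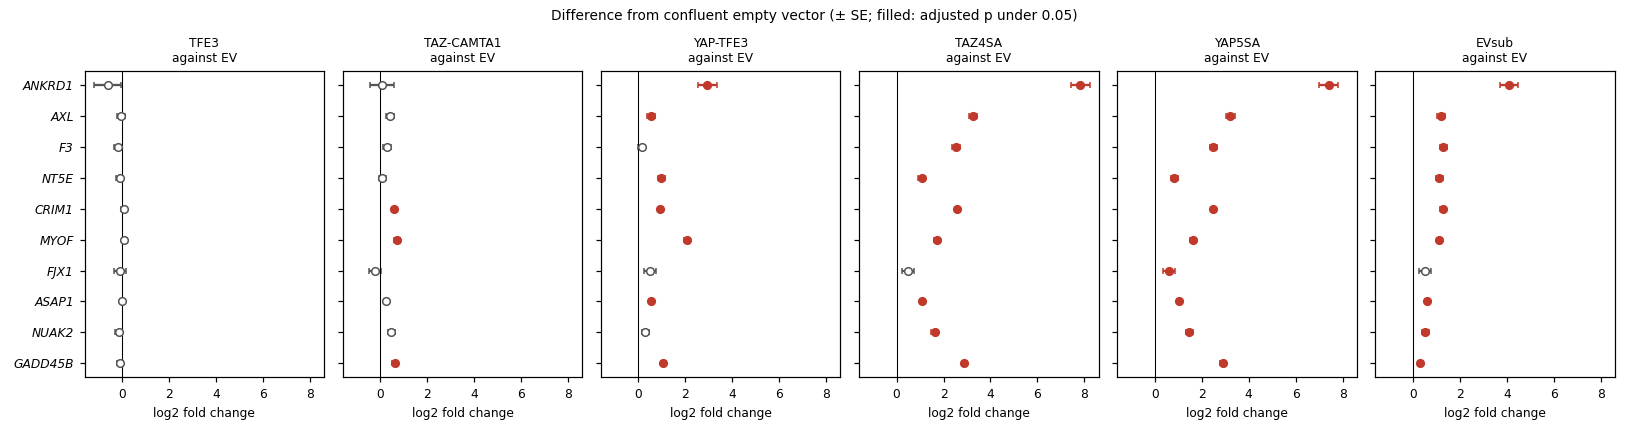
Log2 fold change (horizontal) of each gene (vertical) against confluent empty vector cells in 6 comparisons, with SE. Filled points passed adjusted p under 0.05. The 10 genes lie along 0 in TFE3, spread to 2.93 in YAP-TFE3 and reach 7.82 in the libraries labelled TAZ4SA, with ANKRD1 the highest in 4 of the 6 panels.

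TFE3 and CAMTA1 are the partner proteins of the fusions, and they were compared with the empty vector collected at the same density. Full-length TFE3 left none of the 10 genes called by edgeR or DESeq2, where 0.035% of all genes were called in either direction. At an unadjusted p under 0.05 stood 0 of the 10, where 3.79% of all genes did. The log2 fold changes of the 10 ran from -0.62 ± 0.56 for ANKRD1 to 0.10 ± 0.11 for MYOF. ASAP1 was at 0.01 ± 0.08 and AXL at -0.06 ± 0.17, and the median over the 10 was -0.09. Full-length CAMTA1 against EVsub also gave 0 of 10 by both tools, while 1.26% of all genes were higher and 0.57% lower (1.11% and 0.845% with total-count scaling). At an unadjusted p under 0.05 stood 3 genes, MYOF at 0.34 ± 0.11, F3 at 0.34 ± 0.14 and CRIM1 at 0.24 ± 0.10, where 12.4% of all genes did, and the median over the 10 was 0.17 against -0.01 over all genes. CAMTA1 replicate 3 was below the other two for 8 of the 10 genes, all but NUAK2 and GADD45B, and without it MYOF at 0.48 (adjusted p = 0.0104) and F3 at 0.51 (adjusted p = 0.0392) were called. Adipocyte sums were 108.3 to 113.2 CPM in CAMTA1 against 205.0 to 236.6 in EVsub libraries and endothelial sums 25.4 to 29.0 against 32.1 to 47.2; their part in these values was not tested.

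Each fusion was then set directly against the hyperactive form of its parent protein. All 10 genes were lower in TAZ-CAMTA1 than in the libraries labelled TAZ4SA, where 26.9% of all genes were higher and 26.8% lower (37.4% and 18.5% with total-count scaling). ANKRD1 fell by 7.75 ± 0.39 on the log2 scale, AXL by 2.86 ± 0.18, GADD45B by 2.28 ± 0.11, F3 by 2.26 ± 0.15 and CRIM1 by 1.98 ± 0.10. The other 5 fell by 0.73 ± 0.25 for FJX1 to 1.15 ± 0.14 for NUAK2, and the median over the 10 was -1.57 against 0.03 over all genes. The FJX1 call was lost without TAZ-CAMTA1 replicate 2 (adjusted p = 0.0646) and with total-count scaling (adjusted p = 0.0858). In YAP-TFE3 against YAP5SA, with 28.1% of all genes higher and 24.3% lower (32.8% and 20.2% with total-count scaling), 7 of the 10 genes were lower: ANKRD1 fell by 4.48 ± 0.31, AXL by 2.69 ± 0.18, F3 by 2.35 ± 0.15, GADD45B by 1.83 ± 0.11, CRIM1 by 1.54 ± 0.10, NUAK2 by 1.19 ± 0.14 and ASAP1 by 0.51 ± 0.08. MYOF was the exception and was higher in YAP-TFE3 by 0.44 ± 0.11 (adjusted p = 0.00164, edgeR), a fold of 1.36. NT5E at 0.14 ± 0.14 and FJX1 at -0.13 ± 0.25 were not called, with intervals of 2 SE from -0.15 to 0.43 and from -0.62 to 0.36. The FJX1 estimate was 0.20 without YAP-TFE3 replicate 3. The median over the 10 was -1.36 against 0.05 over all genes. Adipocyte and endothelial marker sums, given above, also differed within both pairs, and their part in these results was not tested. The counts give no separate level of each construct. YAP1 averaged 152.7 CPM in YAP-TFE3 against 253.0 in YAP5SA libraries. WWTR1 averaged 180.8 CPM in TAZ-CAMTA1 against 134.2 in the libraries labelled TAZ4SA. The fusions hold only a part of YAP or TAZ, so these values set transcripts of unlike length side by side. The part of construct level in these differences was not tested.

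The 2 fusions also differed from each other. Between TAZ-CAMTA1 and YAP-TFE3, 7 of the 10 genes were lower in TAZ-CAMTA1, while 19.9% of all genes were higher and 22.8% lower (25.5% and 18.8% with total-count scaling). ANKRD1 fell by 2.86 ± 0.39, MYOF by 1.34 ± 0.11, NT5E by 0.88 ± 0.15, FJX1 by 0.72 ± 0.25, GADD45B by 0.45 ± 0.11, CRIM1 by 0.34 ± 0.10 and ASAP1 by 0.30 ± 0.08. AXL at -0.14 ± 0.17, F3 at 0.14 ± 0.15 and NUAK2 at 0.18 ± 0.15 were not called, and the median over the 10 was -0.40 against 0.01 over all genes. The FJX1 call was lost without replicate 1 or 2 of either group (adjusted p 0.0595 to 0.15) and in a fit of these 2 groups only (adjusted p = 0.102). The ASAP1 call was lost with total-count scaling (adjusted p = 0.0608) and in the fit of 2 groups only (adjusted p = 0.0793). Adipocyte sums were 173.1 to 235.1 CPM in TAZ-CAMTA1 against 303.7 to 369.6 in YAP-TFE3 libraries and endothelial sums 77.3 to 122.6 against 35.6 to 52.8; their part in the result was not tested.

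**Figure D3:**
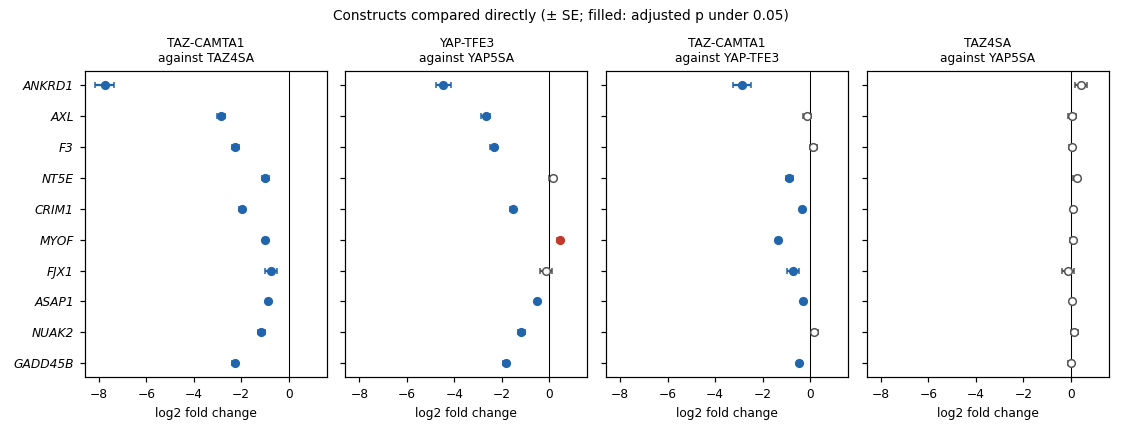
Log2 fold change (horizontal) of each gene (vertical) between constructs compared directly, with SE. Filled points passed adjusted p under 0.05. All 10 genes lie left of 0 for TAZ-CAMTA1 against the libraries labelled TAZ4SA, MYOF lies right of 0 for YAP-TFE3 against YAP5SA at 0.44, and no gene was called for the libraries labelled TAZ4SA against YAP5SA.

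Density was compared within empty vector cells. In EVsub against EV, collected before and after confluence, 9 of the 10 genes were higher and none lower, where 19.8% of all genes were higher and 17.1% lower (15.5% and 21.4% with total-count scaling). ANKRD1 rose by 4.08 ± 0.39 (adjusted p = 2.4e-07, edgeR), a fold of 16.9 and rank 9 from the top of all genes tested. F3 rose by 1.30 ± 0.16, CRIM1 by 1.27 ± 0.10, AXL by 1.20 ± 0.17, MYOF by 1.14 ± 0.11 and NT5E by 1.13 ± 0.15. ASAP1 at 0.62 ± 0.08, NUAK2 at 0.52 ± 0.15 and GADD45B at 0.32 ± 0.12 moved less, and FJX1 at 0.52 ± 0.25 was not called (adjusted p = 0.109). The median over the 10 was 1.13 against -0.02 over all genes. The GADD45B call (adjusted p = 0.0351) was lost without EV replicate 1 or 2 or EVsub replicate 2 or 3, with total-count scaling (adjusted p = 0.0775) and when genes with low counts were kept, and the NUAK2 call was lost without EV replicate 1 or EVsub replicate 3. Summed mesenchymal markers were 2329 to 2490 CPM in EVsub against 1524 to 1718 in EV libraries and endothelial sums 32.1 to 47.2 against 79.7 to 119.0. The mitochondrial share of counts was 3.20 to 3.59% in EVsub against 5.09 to 5.43% in EV libraries; the part of these in the result was not tested.

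Confluent YAP5SA cells were also set against EVsub, a comparison in which construct and density differ together and cannot be told apart. There 8 of the 10 genes were higher in YAP5SA and none was lower, with 27.5% of all genes higher and 26.1% lower (22.1% and 31.5% with total-count scaling). ANKRD1 was higher by 3.33 ± 0.29, a fold of 10.03, GADD45B by 2.57 ± 0.11, AXL by 2.03 ± 0.17, CRIM1 by 1.21 ± 0.10, F3 by 1.18 ± 0.14, NUAK2 by 0.95 ± 0.14, MYOF by 0.48 ± 0.11 and ASAP1 by 0.41 ± 0.08. NT5E at -0.29 ± 0.14 (adjusted p = 0.0905) and FJX1 at 0.10 ± 0.25 were not called, and the median over the 10 was 1.07 against 0.02 over all genes. NT5E was called lower with total-count scaling (log2 fold change -0.41, adjusted p = 0.0277), when genes with low counts were kept, and without EVsub replicate 2 (-0.48, adjusted p = 0.00436). Adipocyte sums were 117.8 to 131.7 CPM in YAP5SA against 205.0 to 236.6 in EVsub libraries, endothelial sums 13.2 to 18.2 against 32.1 to 47.2, and the mitochondrial share 3.87 to 4.35% against 3.20 to 3.59%; their part in the result was not tested.

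Over the 24 libraries the 10 genes mostly moved together. The Pearson r of log2 CPM had a median of 0.824 over the 45 pairs, from 0.458 for FJX1 with GADD45B to 0.983 for ANKRD1 with ASAP1, and Spearman's rho ran from 0.524 to 0.973. These libraries fall into 8 groups, so the values describe mainly how group levels line up. Values this high were not particular to the 10. Except for ASAP1, each had its highest r with a gene outside them, among the 12145 searched below. After each group's mean was taken away, the median r was 0.386, from -0.354 for ASAP1 with NUAK2 to 0.878 for AXL with MYOF. FJX1 with a median r of 0.603 to the other genes, MYOF with 0.661 and NT5E with 0.682 stood apart from the remaining 7, whose medians were 0.852 to 0.938.

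**Figure D4:**
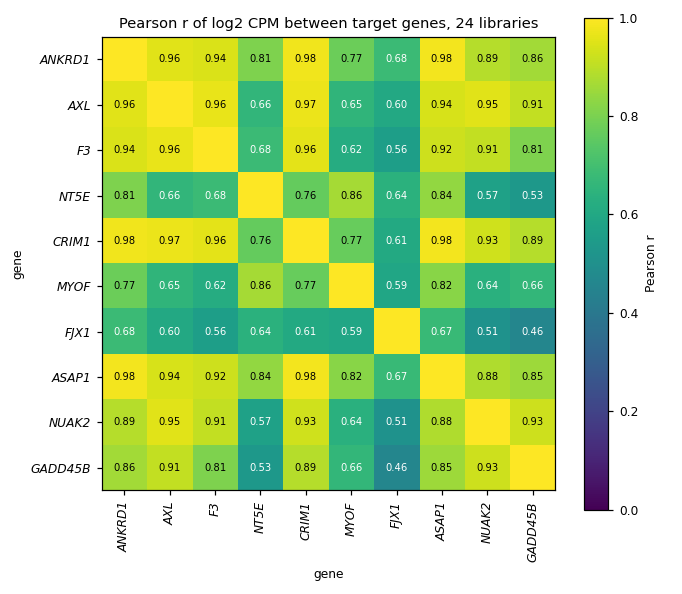
Pearson r of log2 CPM over 24 libraries for each pair of the 10 genes, given as numbers and as colour. The rows of FJX1, NT5E and MYOF hold lower values than the others, and ANKRD1 with ASAP1 has the highest value, 0.983.

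For each of the 10, the gene most like it by r was looked for among 12145 genes that had a symbol and averaged 100 counts or more. ANKRD1 was most like IL7R, the interleukin 7 receptor (r = 0.987), and AXL most like ADARB1, an RNA-editing enzyme (r = 0.988). CRIM1 was most like TGFB2, itself a listed YAP/TAZ target (r = 0.986), and MYOF most like NEDD4L, a ubiquitin ligase (r = 0.985). GADD45B was closest to BCL2L1, an inhibitor of apoptosis (r = 0.982), ASAP1 to PRKAG2, a subunit of AMPK (r = 0.979), F3 to PSG5, one of a family of closely similar genes whose reads the counting could have split (r = 0.976), and NUAK2 to NIBAN2 (r = 0.976). NT5E at 0.934, with PLPBP, and FJX1 at 0.897, with SNHG17, had the lowest values. All points share the same libraries, and no test was made.

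The genes were read beside 13 further genes of a 22-gene YAP/TAZ target list used in pan-cancer work: CCN1, CCN2, AMOTL2, LATS2, IGFBP3, FOXF2, GADD45A, CCDC80, DOCK5, PTPN14, ARHGEF17, TGFB2 and RBMS3. In the libraries labelled TAZ4SA 10 of these 13 were higher than in EV and none lower, beside 25.1% and 24.2% of all genes. In YAP5SA libraries 10 were higher and none lower, beside 22.7% and 21.6% of all genes, and those not called were ARHGEF17, IGFBP3 and RBMS3. In YAP-TFE3, 10 were higher, CCDC80 (-0.45 ± 0.11) and DOCK5 (-0.61 ± 0.12) were lower, and ARHGEF17 was not called, beside 25.6% of all genes higher and 22.6% lower. In TAZ-CAMTA1, 7 of the 13 were higher and none lower, beside 3.55% and 1.44% of all genes, with a median log2 fold change of 0.59 against 0.34 over the 10 genes described here. Of the 13, 4 were at least 2-fold higher, with folds of 2.96 to 5.63, while 0 of the 10 were. These 4 were CCN1, CCN2, AMOTL2 and LATS2, and the CCN family had been left out when the 10 were chosen. Those not called in TAZ-CAMTA1 were ARHGEF17, CCDC80, DOCK5, FOXF2, GADD45A and IGFBP3. In EVsub against EV, beside 19.8% of all genes higher and 17.1% lower, 6 were higher, and ARHGEF17 (-0.28 ± 0.10), IGFBP3 (-0.87 ± 0.28) and RBMS3 (-0.49 ± 0.17) were lower, whereas none of the 10 genes described here was lower in that comparison. TFE3 gave 0 of the 13 by edgeR and 0 by DESeq2, beside 0.035% of all genes called by edgeR. At an unadjusted p under 0.05 it gave 0 of the 13, beside 3.79% of all genes. CAMTA1 against EVsub gave 4, all higher, beside 1.26% of all genes. Against the libraries labelled TAZ4SA, TAZ-CAMTA1 libraries had 9 of the 13 lower and 2, ARHGEF17 and RBMS3, higher, beside 26.8% and 26.9% of all genes. Against YAP5SA, YAP-TFE3 libraries had 7 lower and 3 higher, which were GADD45A, IGFBP3 and LATS2, beside 24.3% and 28.1% of all genes. TAZ-CAMTA1 against YAP-TFE3 gave 5 lower and 2 higher, beside 22.8% and 19.9% of all genes. The libraries labelled TAZ4SA against YAP5SA gave 2 higher and 1 lower, beside 3.53% and 3.64%, and YAP5SA against EVsub gave 11 higher and none lower, beside 27.5% and 26.1%.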

How the data were processed

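Poly(A) RNA of 24 SW872 libraries was sequenced with a stranded kit. Per the labels and the study's methods, the authors aligned reads to hg38 with Hisat2 within bcbio-nextgen and deposited, for each library, a table of integer counts by Ensembl identifier, not normalized and not pooled. The counting tool, its use of strand and its treatment of reads with several alignments are not given in the sources used here. The authors tested with DESeq2 on a separate salmon quantification.

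Counts were analysed here with edgeR 4.0.16 in R 4.3.3: TMM scaling, 1 quasi-likelihood fit of all 24 libraries with 1 mean per group, the 19997 genes averaging 5 counts or more, and Benjamini-Hochberg adjustment over all of them in each of 12 contrasts, with calls at adjusted p under 0.05. SE is the size of the log2 fold change divided by the root of F. Log2 CPM used a prior count of 2. Symbols, positions and exon lengths came from GENCODE release 44. Alternatives were DESeq2 1.42.0, other scalings and filters, a test against a log2 change of 1, the 2 groups only, a replicate block and leaving out each library.

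The procedure was tested on simulated counts for TAZ-CAMTA1 against EV, with 199 changed genes among 19849 tested: 67.7% of 2-fold and 94% of 4-fold changes were recovered, and 4.73% of calls were false. The simulation gave genes of like level the same spread and set no library apart. It also changed fewer genes than were called in this comparison. Its rates may therefore not hold for the real libraries. Replicate pairs differed beyond counting noise in every group, so no library was counted as a duplicate. Groups and replicate numbers came from GEO titles. The 10 genes and all lists were chosen with earlier results of these data known. Named genes were these 10, the construct genes and the gene most like each of the 10. Further listed targets were named where not called, where moving against their list or where at least 2-fold higher in TAZ-CAMTA1. No molecular identifiers were described, so counts are of reads.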

Additional observations from a re-analysis of the deposited data

How the results depend on the processing

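Of 1680 recomputed log2 fold changes of single genes, 1570 kept their direction and their side of the threshold. A test against a log2 change of 1 instead of 0 left fewer genes called, as this test asks for more than any difference. Against EV it called 0 of the 10 in TAZ-CAMTA1, 2 in YAP-TFE3, 7 in TAZ4SA, 7 in YAP5SA and 1 in EVsub. Of all 19997 genes it called 47 higher and 2 lower in TAZ-CAMTA1, 1130 and 255 in YAP-TFE3 and 989 and 517 in TAZ4SA. For YAP5SA these were 972 and 469, and for EVsub 40 and 40. Between constructs it called 5 of the 10 in TAZ-CAMTA1 against TAZ4SA, 5 in YAP-TFE3 against YAP5SA and 2 in TAZ-CAMTA1 against YAP-TFE3. Of all genes, 661 were higher and 913 lower, 1008 and 780, and 154 and 823, in the same order. YAP5SA against EVsub kept 3, beside 984 of all genes higher and 642 lower. Keeping genes with low counts called 1 in CAMTA1 against EVsub and 1 in TAZ4SA against YAP5SA, and added FJX1 in TAZ4SA (adjusted p = 0.00183), YAP-TFE3 (0.00103) and EVsub (0.000739) against EV, AXL in TAZ-CAMTA1 against EV and NT5E in YAP5SA against EVsub, while GADD45B in EVsub against EV lost its call (0.0632). The fit of 2 groups added FJX1 in TAZ4SA (0.0329) and EVsub (0.0209) against EV and AXL in TAZ-CAMTA1 against EV; the cause was not tested. Leaving out each library in turn gave 0 to 2 genes in CAMTA1 against EVsub.

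Reversals of sign came from estimates that no setting called. DESeq2 gave -0.0010 and its size factors -0.000775 for ASAP1 in TFE3 against EV, and -0.011 and -0.011 for GADD45B in TAZ4SA against YAP5SA, where total-count scaling gave -0.013 and the fit of 2 groups -0.0024. Total-count scaling also gave -0.018 for ASAP1 in CAMTA1 against EVsub and -0.020 for FJX1 in YAP5SA against EVsub. With 1 library left out, ANKRD1 ran from -0.18 to 0.49 in TAZ-CAMTA1 against EV and from -0.34 to 0.47 in CAMTA1 against EVsub, where ASAP1 ran from -0.051 to 0.063 and NUAK2 from -0.025 to 0.19. In TFE3 against EV, FJX1 ran from -0.33 to 0.12 and ASAP1 from -0.034 to 0.042. In TAZ4SA against YAP5SA, AXL ran from -0.040 to 0.11, F3 from -0.080 to 0.12 and GADD45B from -0.066 to 0.10. FJX1 in YAP-TFE3 against YAP5SA ran from -0.35 to 0.20, and AXL in TAZ-CAMTA1 against YAP-TFE3 from -0.31 to 0.015. Total-count scaling moved the median of all genes by up to 0.20 on the log2 scale (TAZ-CAMTA1 against TAZ4SA).

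Same-numbered libraries of different groups did not deviate together throughout: their correlations ran from -0.236 to 0.366, and no comparison had all 3 above 0.1. A replicate block left the count of genes called at 3, 9, 7, 10 and 9 of 10 in TAZ-CAMTA1, TAZ4SA, YAP-TFE3, YAP5SA and EVsub against EV, as without it. In YAP-TFE3 against EV 6 of 6 libraries correlated best with their own number. In EVsub against EV and in TAZ-CAMTA1 against TAZ4SA 5 of 6 did. In TAZ4SA against EV and in YAP5SA against EVsub 1 of 6 did. The gene most like each of the 10 stayed the same when genes averaging 5 counts or more were searched, and by Spearman's rho in 2 of 10, IL7R for ANKRD1 and SNHG17 for FJX1.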
